A study of Mus musculus with 9 samples.

Results

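The genes followed here restrain the cell cycle. They are the inhibitors of cyclin-dependent kinases (CDKs) Cdkn1b, Cdkn1c, Cdkn2a, Cdkn2b, Cdkn2c and Cdkn2d, the growth arrest gene Gadd45a, and Btg1, Btg2 and Tob1 of the antiproliferative BTG/TOB family. They were taken as a list of 10 gene symbols, each read by the probe set that carries only that symbol and has the highest mean signal. All 10 were measured, among 19938 genes in all. Total RNA of heart muscle from C57BL/6 mice, an inbred laboratory strain, was hybridised to Affymetrix Mouse Gene 1.0 ST arrays. The mice were 24 hours, 7 days or 10 weeks old, with 3 arrays at each age, and no group was treated or carried an engineered allele according to the labels. The labels name neither the sex of the mice nor the number of animals behind an array, and they do not say whether replicates were separate animals, so p-values measure only the spread between these samples.

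A cell enters DNA synthesis when cyclin D bound to CDK4 or CDK6, and then cyclin E or A bound to CDK2, have phosphorylated the retinoblastoma protein and its relatives. INK4 inhibitors, the products of Cdkn2a to Cdkn2d, bind CDK4 and CDK6 alone, whereas the CIP/KIP inhibitors, to which the products of Cdkn1b and Cdkn1c belong, bind cyclin and CDK complexes more broadly. Mouse heart muscle cells still divide around birth, go through a last round of DNA synthesis that leaves many of them with a pair of nuclei, and then seldom divide.

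Signals are log2 values as deposited, so a difference of 1 is a 2-fold change. A gene passed when the adjusted p of limma's test over all 19938 genes was under 0.05. The level of one probe set cannot be set against that of another, and only differences between ages are compared across genes. Heart muscle markers were strong on every array, with a mean over 7 of them between 12.22 and 12.36. Arrays of an age correlated at 0.994 to 0.998 over genes. Other cell types moved with age: the mean of 6 macrophage markers ran from 6.64 to 6.78 at 24 hours, 7.34 to 7.43 at 7 days and 8.19 to 8.43 at 10 weeks, and that of 5 atrial markers from 9.48 to 10.56 before and 6.58 to 8.20 at 10 weeks. The 7 fibroblast markers averaged 9.25 to 9.48, 9.98 to 10.26 and 8.76 to 8.96 in the order of age, and the 6 endothelial markers 9.23 to 9.25, 9.37 to 9.43 and 9.03 to 9.14. Of the epicardial markers 4 of 4 and of the erythroid markers 3 of 3 fell after day 7 with all arrays, with medians of -1.48 and -1.66. Without 7-day replicates 2 and 3 these medians were -1.17 and -1.69. The liver gene Alb and the airway gene Scgb1a1 measured 7.81 and 6.83 on 7-day replicate 2. Alb also measured 5.27 and 6.04 on 24-hour replicates 1 and 3, and 3.73 to 4.16 on the remaining arrays. Scgb1a1 measured 5.83 on 24-hour replicate 1 and 2.49 to 2.76 on the remaining arrays. In comparisons with 24 hours these newborn arrays were kept in every fit except those that left out 1 array at a time. Brown fat markers stood at 8.53 and 7.08 on 7-day replicates 2 and 3 and at 5.67 to 6.03 on the others. Counts of cell type markers are given with all arrays only. Other results are also given without 7-day replicates 2 and 3, for each of the 10 genes where that ends a call and as counts for most lists of related genes. That leaves 1 array at 7 days and lowers the number of all genes called from 2009 to 516 in the first week and from 7165 to 4156 between 7 days and 10 weeks. Signals of Eif2s3y, on the Y chromosome, ran from 6.06 to 7.70 at the younger ages and from 2.87 to 3.30 at 10 weeks, while Xist, the RNA of the inactive X chromosome, ran from 8.26 to 9.56 at the younger ages and from 8.69 to 8.97 at 10 weeks, so that sex and age cannot be told apart in comparisons with 10 weeks. The part of these cell types in the results below was not tested. In a whole tissue, fewer cells of a type and less RNA per cell cannot be told apart.

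The newborn heart held the highest signals of Cdkn1b and Cdkn1c, and the adult heart the highest of Gadd45a, Cdkn2a and Cdkn2b. The probe sets of Cdkn2a and Cdkn2b were dim, with mean signals of 4.92 and 5.22 against a median of 5.57 over all genes. Between 24 hours and 7 days 2 of the 10 genes fell, Cdkn1c 1.56-fold and Cdkn1b 1.26-fold, and 0 rose by limma, where 4.81% of all tested genes fell and 5.27% rose. At an unadjusted p under 0.05, 2 of the 10 were higher (Cdkn2c and Btg2) and the same 2 lower. Between 7 days and 10 weeks 5 genes fell (Cdkn2c, Btg1, Cdkn2d, Cdkn1c and Cdkn1b) and 2 rose (Gadd45a and Cdkn2b), against 18.9% lower and 17.0% higher among all genes. Over the whole span from 24 hours to 10 weeks the same 5 genes were lower and Gadd45a, Cdkn2a and Cdkn2b were higher, against 20.6% and 19.5% of all genes. The share of genes that rose after day 7 is thus close to the background, and the share that fell is above it. The same shares of all genes are the background for those counts of the related lists below that use all arrays. They are not the background for counts without 7-day replicates 2 and 3, where fewer of all genes passed in each comparison. The median difference of the 10 genes was 0.01, -0.18 and -0.28 in these comparisons, and that of all genes 0.00, 0.04 and 0.04; the median size of the difference without its sign was 0.13, 0.33 and 0.57, against 0.08, 0.15 and 0.16. Gadd45a was the only gene of the 10 to change at least 2-fold in any comparison. With each array centred on its median, 41.6% in place of 52.3% of all calls in the first week and 61.3% in place of 47.3% of those between 7 days and 10 weeks were rises. The genes of the list that passed, and their directions, were the same under that scaling in all 3 comparisons.

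**Figure D1:**
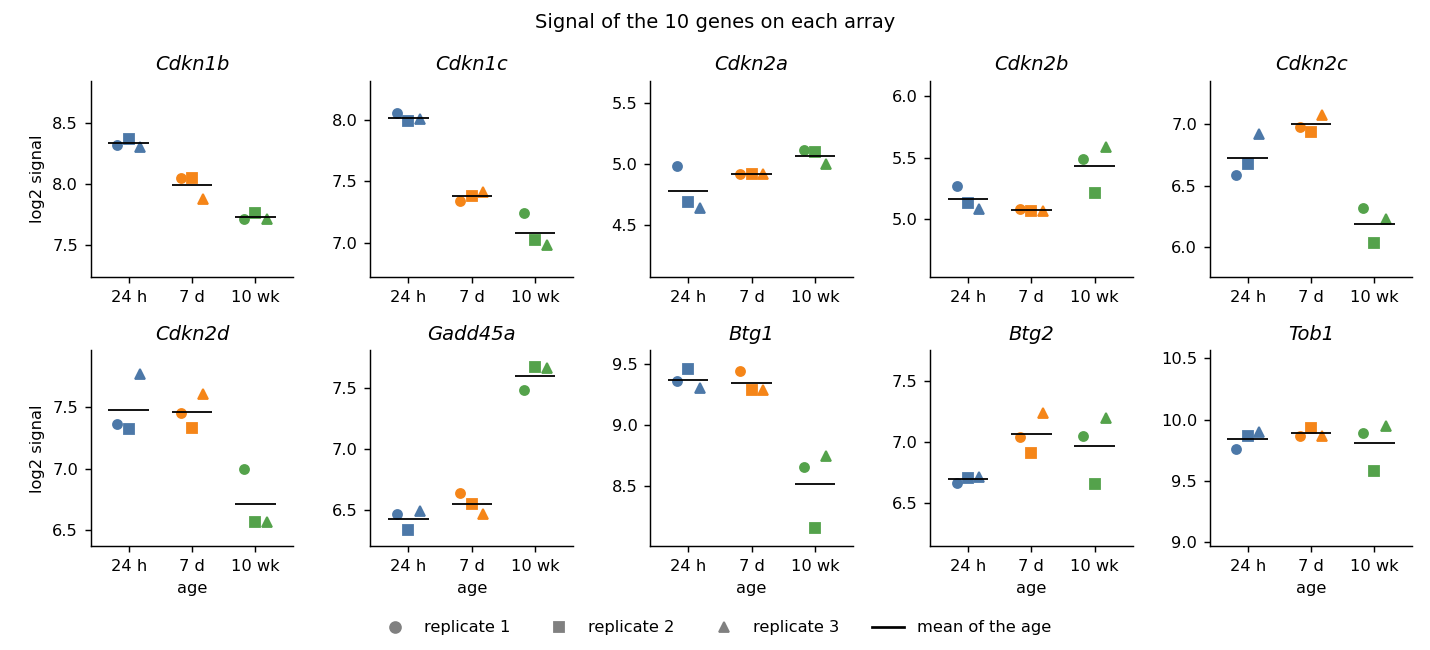
Log2 signal of each of the 10 genes on the 9 arrays, by age (horizontal axis), with a point per array, its shape giving the replicate number, and a line at the mean of the age. Each panel spans the same height of 1.6 log2 units around its own centre. Cdkn1b and Cdkn1c step down at both intervals, Gadd45a is high at 10 weeks, and Tob1 stays between 9.58 and 9.95.

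Cdkn1c (probe set 10569429) encodes p57, a CIP/KIP inhibitor expressed from the maternal copy of an imprinted region and known for its part in embryonic growth control. Its log2 signal was 8.06, 7.99 and 8.01 on the 24-hour arrays, 7.34, 7.38 and 7.41 on the 7-day arrays and 7.24, 7.02 and 6.98 on the 10-week arrays. The 3 ages did not overlap, and the largest step came first. Cdkn1c fell by 0.64 ± 0.07 (SE) on the log2 scale in the first week (limma adjusted p = 3.83e-04), by a further 0.30 ± 0.07 up to 10 weeks (adjusted p = 0.00739) and by 0.94 over the whole span, a 1.91-fold fall (adjusted p = 2.34e-06). The step after day 7 was 0.26 and did not pass without the 7-day arrays that carried fat transcripts (adjusted p = 0.152).

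From the imprinted region of Cdkn1c, 7 neighbouring genes had a probe set of their own. Of these, 0 passed by limma in the first week, in which Cdkn1c fell (1 higher and 1 lower at an unadjusted p under 0.05); the largest difference was that of the potassium channel gene Kcnq1, at -0.31 (adjusted p = 0.0807; 4.81% of all genes were lower). After day 7, 3 of the 7 fell and 0 rose, Tssc4 by 0.47, Kcnq1 by 0.36 and the tetraspanin gene Cd81 by 0.32 on the log2 scale. Kcnq1 differed by -0.32 without 7-day replicates 2 and 3 and did not pass (adjusted p = 0.221), which left 2 of the 7. From 24 hours to 10 weeks only Kcnq1, by 0.67, and Cd81, by 0.32, were lower among them. The placental growth regulator Phlda2 measured 4.51 ± 0.09 (SD, n = 3), 4.57 ± 0.08 and 4.66 ± 0.05 in order of age, without a call.

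Cdkn1b (probe set 10542310) encodes p27, the CIP/KIP inhibitor that accumulates in resting cells. Its signal was 8.32, 8.37 and 8.30 at 24 hours, 8.05, 8.05 and 7.88 at 7 days and 7.71, 7.76 and 7.71 at 10 weeks. Again no age overlapped another. Cdkn1b fell by 0.34 ± 0.06 (SE) in the first week (adjusted p = 0.00589), by 0.27 ± 0.06 afterwards (adjusted p = 0.00544) and 1.52-fold in all (adjusted p = 1.72e-05). Without 7-day replicates 2 and 3 the fall of the first week was 0.28 with an adjusted p of 0.115.

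A second probe set (10542317), the only extra one among the 10 genes, also carries the Cdkn1b symbol alone. It measured 6.62, 6.68 and 6.53 at 24 hours, 6.11, 6.29 and 5.88 at 7 days and 6.01, 5.51 and 6.10 at 10 weeks. The newborn arrays were the highest in both readings, but here the 7-day and 10-week arrays overlapped. Its difference was -0.52 in the first week (adjusted p = 0.056) and -0.21 after it (adjusted p = 0.296), and it fell by 0.73 over the whole span (adjusted p = 0.00249). With both probe sets averaged, the difference of Cdkn1b after day 7 was -0.24 and did not pass (adjusted p = 0.0636).

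**Figure D2:**
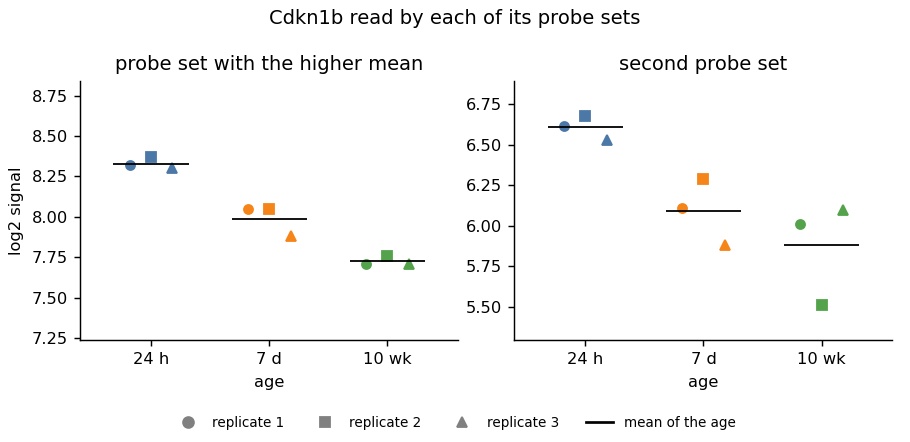
Log2 signal of Cdkn1b by age on the probe set with the higher mean (left) and on the second one (right), with a point per array and a line at the mean of the age; both vertical axes span 1.6 units. Both are highest at 24 hours, while 10-week arrays lie apart from 7-day arrays on the left and among them on the right.

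The INK4 genes split by age. Cdkn2c and Cdkn2d were lower in the adult heart, whereas Cdkn2a and Cdkn2b, which lie next to each other in the genome, were slightly higher there. Cdkn2c (probe set 10515090) encodes p18. It measured 6.59, 6.68 and 6.92 at 24 hours, 6.98, 6.94 and 7.08 at 7 days and 6.32, 6.03 and 6.23 at 10 weeks. The 7-day arrays were the highest and the 10-week arrays the lowest, with no overlap between any ages. The difference of the first week, 0.27 (95% interval 0.05 to 0.49), did not pass (adjusted p = 0.136). Afterwards Cdkn2c fell by 0.81 ± 0.10 (SE), or 1.75-fold (adjusted p = 1.04e-04), to a level 0.53 below the newborn one (95% interval of the difference -0.76 to -0.31, adjusted p = 0.00143).

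Cdkn2d (probe set 10591517) encodes p19 of the INK4 family. It measured 7.36, 7.32 and 7.77 at 24 hours, 7.45, 7.33 and 7.61 at 7 days and 7.00, 6.56 and 6.56 at 10 weeks. The younger ages covered the same range and each adult array lay below them. Cdkn2d fell by 0.75 ± 0.15 after day 7, 1.69-fold (adjusted p = 0.00215), and by 0.77 over the whole span (adjusted p = 0.0016). The difference of the first week was -0.02 (95% interval -0.34 to 0.31, adjusted p = 0.974). Without 7-day replicates 2 and 3 the difference after day 7 was -0.74 (adjusted p = 0.0534).

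Cdkn2b (probe set 10514347), which encodes p15, a target of TGF-beta signalling, rose after the first week. Its signals were 5.27, 5.13 and 5.08 at 24 hours, 5.08, 5.06 and 5.06 at 7 days and 5.49, 5.21 and 5.59 at 10 weeks. Each 10-week array lay above each 7-day array, and 10-week replicate 2 lay within the newborn range. Cdkn2b rose by 0.36 ± 0.10 after day 7 (adjusted p = 0.0136; 0.35 with an adjusted p of 0.175 without 7-day replicates 2 and 3). The difference between 24 hours and 10 weeks was 0.27 with an adjusted p of 0.0463, at the edge of the threshold. It did not pass without 24-hour replicate 2 (0.26, adjusted p = 0.122), 24-hour replicate 3 (0.23, adjusted p = 0.145), 7-day replicate 1, 2 or 3 (adjusted p = 0.0638, 0.061 and 0.067, each with 0.27), 10-week replicate 1 (0.24, adjusted p = 0.123) or 10-week replicate 3 (0.19, adjusted p = 0.145), nor with only the arrays of these ages (adjusted p = 0.0932), nor without 7-day replicates 2 and 3 (adjusted p = 0.0931).

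Cdkn2a (probe set 10514340) yields p16 and, from a separate start site and in another reading frame, the ARF protein that acts on p53. The probe set lists RefSeq transcripts of both and cannot separate them. Its signal was 4.99, 4.69 and 4.64 at 24 hours, 4.92 on each of the 7-day arrays and 5.12, 5.10 and 5.0 at 10 weeks. The adult arrays lay above all younger ones, the lowest of them only just over 24-hour replicate 1. The 3 values at 7 days were identical to the last deposited digit, as they were for 2.56% of all genes at that age. Neither step passed (0.15 each, adjusted p = 0.418 and 0.221), and from 24 hours to 10 weeks the signal rose by 0.30 ± 0.09 (adjusted p = 0.0213). This rise did not pass without 24-hour replicate 2 (0.26, adjusted p = 0.0841), 24-hour replicate 3 (0.23, adjusted p = 0.0862), 10-week replicate 1 (0.28, adjusted p = 0.0642) or 10-week replicate 2 (0.29, adjusted p = 0.0577), nor with only the arrays compared (adjusted p = 0.0523), nor without 7-day replicates 2 and 3 (adjusted p = 0.0522).

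Gadd45a (probe set 10545130), a stress-inducible gene whose product binds PCNA, CDK1 and the kinase MAP3K4, had the largest change of the list. Its signal was 6.47, 6.34 and 6.49 at 24 hours, 6.64, 6.55 and 6.47 at 7 days and 7.48, 7.67 and 7.66 at 10 weeks. The younger ages overlapped, and the lowest adult array stood well above them. The difference of the first week was 0.12 (95% interval -0.05 to 0.29, adjusted p = 0.448). From day 7 to week 10 Gadd45a rose 2.07-fold (1.05 ± 0.08 SE on the log2 scale, adjusted p = 2.31e-06), and over the whole span 2.25-fold (adjusted p = 7.41e-07).

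Its relatives had other courses. Gadd45b fell by 0.66 in the first week (7.43 ± 0.08 to 6.77 ± 0.23, SD, n = 3, adjusted p = 0.00665) and measured 6.83 ± 0.19 in the adult. Its first-week difference was -0.40 without 7-day replicates 2 and 3 (adjusted p = 0.234). Gadd45g went from 6.45 ± 0.20 at 7 days to 6.05 ± 0.12 at 10 weeks (adjusted p = 0.00884), a difference of -0.40 that was -0.31 without the same arrays (adjusted p = 0.077). Among the 6 tested genes of the GADD45 family and its partners, 3 rose and 2 fell after day 7, with a list median of 0.16; without 7-day replicates 2 and 3, 2 rose and 1 fell, with a median of 0.07. Map3k4, the kinase that GADD45 proteins activate, rose by 0.46, and Gadd45gip1, which encodes a GADD45-binding protein, by 0.43 (0.34 with an adjusted p of 0.264 without those arrays), while Pcna, the sliding clamp of DNA replication, fell by 1.16 on the log2 scale. Gadd45a is also a p53 target, and the p53 pathway genes were divided at that step. Of 10 tested, 2 rose and 5 fell (median -0.10), or 1 and 3 without 7-day replicates 2 and 3 (median -0.14): Sesn1, which encodes a stress-induced inhibitor of mTORC1, rose by 1.03, whereas the polo-like kinase gene Plk2 fell by 1.01 and Phlda3, an inhibitor of AKT, fell by 0.89. Cyclin G1 (Ccng1), a further p53 target, measured 11.18 ± 0.02, 11.43 ± 0.05 and 12.06 ± 0.09 in order of age and rose by 0.25 and by 0.63 at the successive steps (adjusted p = 0.0106 and 4.76e-06). Its first step was 0.30 and did not pass without 7-day replicates 2 and 3 (adjusted p = 0.0927).

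Members of the BTG/TOB family restrain growth largely through the CCR4-NOT complex, which shortens the tails of messenger RNAs. Btg1 and Btg2 are induced by stress, growth arrest signals and differentiation, Btg2 as an immediate early gene, and Tob1 acts beside SMAD proteins. Promoter sequences for 9 of the 10 genes (11 start sites) were taken from RefSeq on GRCm38.p6, from 250 bases before to 50 after each start, and searched on both strands. Shown are the stretches in which a searched motif was found upstream of the start, with the motif in capitals, at chr10:96616773-96616827 (plus strand) for Btg1, chr1:134079290-134079345 (minus strand) for Btg2 and chr4:89311047-89311102 (minus strand) for Cdkn2b.

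Btg1, FOXO motif: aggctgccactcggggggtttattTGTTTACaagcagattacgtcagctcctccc

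Btg2, CRE: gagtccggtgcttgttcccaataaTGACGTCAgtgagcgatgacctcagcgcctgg

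Cdkn2b, CRE: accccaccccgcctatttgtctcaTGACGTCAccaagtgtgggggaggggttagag

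The FOXO letters TGTTTAC were in the promoter of Btg1 alone among the 9 genes searched and in 3.65% of all 32851 promoters of that length. The palindrome TGACGTCA, the cyclic AMP response element (CRE), was in those of Btg2 and Cdkn2b and in 1.79% of all promoters. The E-box CACGTG, in 7.15% of all promoters, was found after 1 of the 2 start sites of Cdkn2c. The E2F letters TTTGGCGC and TTTCGCGC, in 0.813% of all promoters, were in none. These matches describe letters only. The promoters of these genes held a median of 21 CpG in the upstream 250 bases, against 6 over all promoters. The start sites of Cdkn2a had 40 and 7.

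Btg1 (probe set 10365971) fell in the adult heart. It measured 9.36, 9.46 and 9.30 at 24 hours, 9.44, 9.29 and 9.29 at 7 days and 8.66, 8.16 and 8.75 at 10 weeks. The younger ages overlapped and all adult arrays lay below it. Btg1 fell by 0.81 ± 0.13 (SE) after day 7, 1.76-fold (adjusted p = 6.20e-04), and by 0.85 over the whole span (adjusted p = 3.85e-04). In the first week the difference was -0.04 (95% interval -0.33 to 0.26, adjusted p = 0.942). Among lymphocyte markers, 0 of 4 T cell and 0 of 3 B cell genes passed by limma between 7 days and 10 weeks, when Btg1 fell (1 T cell gene was higher at an unadjusted p under 0.05). With all arrays, 3 of the T cell genes were higher at 10 weeks than at 24 hours (Cd3g by 0.43, Cd8a by 0.34 and Cd4 by 0.32). Each of these T and B cell markers lay below the median signal of all genes (5.57) on every array, so a missing call says little. Their part in the Btg1 values was not tested.

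Btg2 (probe set 10357875) measured 6.67, 6.71 and 6.72 at 24 hours, 7.04, 6.91 and 7.24 at 7 days and 7.05, 6.66 and 7.20 at 10 weeks. Each 7-day array lay above each newborn array, whereas 10-week replicate 2 was just under the lowest newborn array. The difference was 0.36 (95% interval 0.08 to 0.65) in the first week, -0.09 (-0.38 to 0.19) afterwards and 0.27 (-0.01 to 0.56) over the whole span, and none passed (adjusted p = 0.115, 0.61 and 0.119). Without 10-week replicate 2 the difference from the newborn heart passed at 7 days (0.36, adjusted p = 0.0283) and at 10 weeks (0.43, adjusted p = 0.00691). With only the arrays of both younger ages the first week also passed (adjusted p = 0.0387), and with quantile normalization the whole span did (0.36, adjusted p = 0.0418). The other alternatives did not pass, so 2 of 18 passed in the first week and 2 of 18 over the whole span. Over these alternatives the difference ran from 0.28 to 0.44 in the first week and from 0.16 to 0.43 over the whole span.

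Tob1 (probe set 10380381) was called in no comparison. It measured 9.76, 9.87 and 9.90 at 24 hours, 9.87, 9.93 and 9.87 at 7 days and 9.89, 9.58 and 9.95 at 10 weeks. All ages overlapped. The differences were 0.05 (95% interval -0.15 to 0.24), -0.08 (-0.27 to 0.12) and -0.03 (-0.23 to 0.16), with adjusted p of 0.86, 0.519 and 0.804. These intervals leave room for a change of at most 0.27 in either direction at this precision. Its relative Tob2, in contrast, rose by 0.58 after day 7 (adjusted p = 1.10e-04), from 5.84 ± 0.05 to 6.42 ± 0.13.

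One adult array was low for all 3 genes of this family. Btg1, Btg2 and Tob1 each had their lowest value of the 10-week group on replicate 2, by 0.50, 0.39 and 0.31 under the next array. That array was the lowest of its age for 5 of the 10 genes, and for 35.4% of all tested genes. The mean over 18 immediate early genes was 6.72, 6.61 and 6.71 on the 10-week replicates, and the mean over 10 glucocorticoid-responsive genes 7.48, 7.66 and 7.47, so replicate 2 was the lowest in the first and the highest in the second. It was also the highest for the 5 atrial markers, with means of 6.58, 8.20 and 7.69, and for the 3 erythroid markers, with 4.55, 5.49 and 4.61. The part of any of these lists in the BTG/TOB values was not tested.

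Of the 18 immediate early genes, which with Btg2 respond within minutes to growth signals and to tissue handling, 6 rose and 0 fell in the first week, with a median of 0.14. Dusp1, a phosphatase of MAP kinases, rose by 0.91, the transcription factor gene Egr1 by 0.75 and Jun by 0.51. Without 7-day replicates 2 and 3 the median was again 0.14 and 0 of them passed by limma (5 higher and 1 lower at an unadjusted p under 0.05). After day 7, 2 rose and 4 fell (median 0.04), and 0 passed in either direction without the same arrays (1 higher and 2 lower unadjusted). The matricellular gene Ccn1 rose by 0.45, while Ier2 fell by 0.43 and Egr1 fell by 0.42.

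Of the 9 tested BTG/TOB relatives and partners, 1 rose and 6 fell after day 7, with a median of -0.41 against 0.04 over all genes. In the fit without 7-day replicates 2 and 3, 1 rose and 4 fell, with a median of -0.37; Cnot1 (-0.37, adjusted p = 0.151) and Cnot8 (-0.17, adjusted p = 0.243) no longer passed. Pabpc1, the poly(A)-binding protein that BTG and TOB proteins contact, fell by 0.97 (adjusted p = 1.41e-07), and Prmt1, an arginine methyltransferase bound by BTG1 and BTG2, fell by 0.69 (adjusted p = 7.61e-05). Of the paired deadenylase genes, Cnot8 fell from 8.17 ± 0.02 at 7 days to 7.99 ± 0.09 at 10 weeks (adjusted p = 0.029), and Cnot7 measured 8.55 ± 0.06 and 8.70 ± 0.08 (adjusted p = 0.0556). The scaffold gene Cnot1 fell at both steps, by 0.39 and by 0.50 on the log2 scale. In the first week 1 of the 9 rose (Smad1, by 0.25) and 2 fell (Cnot1 and Prmt1, which fell by 0.37), and 0 passed by limma without 7-day replicates 2 and 3 (1 higher and 2 lower at an unadjusted p under 0.05).

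**Figure D3:**
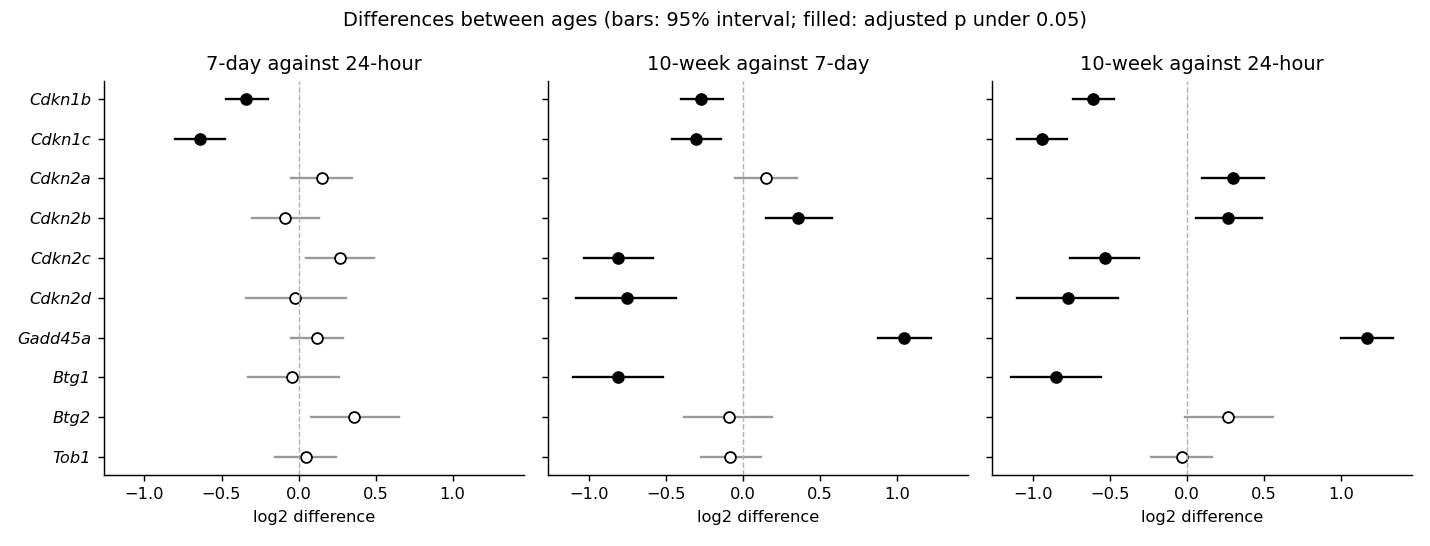
Log2 difference of each of the 10 genes in each comparison of ages, with its 95% interval from the fit; filled points have an adjusted p under 0.05. In the first week Cdkn1b and Cdkn1c alone are filled, both below 0, and in both comparisons with 10 weeks Gadd45a lies farthest to the right, at 1.05 and 1.17.

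Most kinases and cyclins on which these inhibitors act fell after the first week. Of 10 such genes 1 rose and 0 fell in the first week, when cyclin E2 (Ccne2) rose by 0.51 (adjusted p = 0.00165). Its difference was 0.52 without 7-day replicates 2 and 3 and did not pass (adjusted p = 0.0655). After day 7, 9 of the 10 fell, with a median difference of -1.27 against -0.18 for the 10 inhibitor and antiproliferative genes. The S-phase and mitotic cyclin A2 (Ccna2) fell by 4.15, its partners Cdk1 by 2.29 and Cdk2 by 2.25, and the INK4 targets Cdk6 by 1.72 and Cdk4 by 1.02. The exception was cyclin D1 (Ccnd1), with 8.85 ± 0.19, 9.19 ± 0.17 and 8.90 ± 0.20 in order of age and no call in any comparison (adjusted p = 0.128, 0.0913 and 0.788). Cyclin D2 (Ccnd2) fell by 0.35 after day 7 and at 10 weeks lay 0.11 under its newborn signal (adjusted p = 0.295).

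Among 7 tested inhibitors and pocket proteins outside the list, 2 rose and 3 fell after day 7 (median -0.06), and 1 rose and 2 fell in the first week. When 7-day replicates 2 and 3 were left out, 2 rose and 2 fell after day 7, and 0 passed by limma in the first week (1 higher and 2 lower at an unadjusted p under 0.05). The retinoblastoma relative Rbl2, or p130, which is typical of resting cells, fell by 0.49 in the first week and then rose by 0.73, ending at 7.99 ± 0.08; its first step was -0.50 without those arrays (adjusted p = 0.0685). Its relative Rbl1, or p107, typical of dividing cells, fell by 1.31 after day 7, and the CDK-directed phosphatase gene Cdkn3 fell by 1.36. Rb1 itself measured 7.25 ± 0.13, 7.27 ± 0.10 and 7.55 ± 0.22, higher at 10 weeks than at 24 hours by 0.31 (adjusted p = 0.0469, or 0.0824 without those arrays).

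Of 15 genes that control the turnover or transcription of the inhibitors, 4 rose and 6 fell after day 7 (median -0.16), and 2 rose and 2 fell in the first week (median -0.06). Of all genes, 17.0% rose and 18.9% fell after day 7, and 5.27% rose and 4.81% fell in the first week. Skp2, the ubiquitin ligase subunit that marks p27 for breakdown, fell by 0.93 after day 7 (adjusted p = 8.05e-06), and Cks1b, its cofactor on p27, fell by 2.15 (adjusted p = 1.23e-07). Ezh2, the histone methyltransferase that represses the Cdkn2a locus, fell by 1.82, whereas the repressor subunits Cbx7 and Bmi1 rose by 1.36 and by 0.19 (adjusted p = 0.0477 for the latter). FOXO factors, activators of Cdkn1b, went both ways. Foxo3 rose by 0.55 and Foxo4 by 0.33, and Foxo1 fell by 0.19. Meis1, a regulator of inhibitor genes in heart muscle cells, fell by 0.25 in the first week and by 0.41 afterwards. Myc, a repressor of several CDK inhibitor genes, fell by 0.61 and then by 0.64 on the log2 scale. In the first week Fbxw7, the ubiquitin ligase subunit that targets cyclin E, rose by 0.62 and the Notch target Hes1 by 0.42. After day 7 Fbxw7 differed by -0.19 with all arrays (adjusted p = 0.0515) and by -0.32 without 7-day replicates 2 and 3. Without those arrays, calls among these 15 genes were lost at both steps. Among the calls lost were those of Myc (-0.61, adjusted p = 0.0883), Hes1 (0.51, adjusted p = 0.0587) and Meis1 (-0.25, adjusted p = 0.307) in the first week, and of Foxo3 (0.47, adjusted p = 0.0539), Foxo4 (0.34, adjusted p = 0.0534), Foxo1 (-0.24, adjusted p = 0.0977) and Bmi1 (0.13, adjusted p = 0.45) after it.

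**Figure D4:**
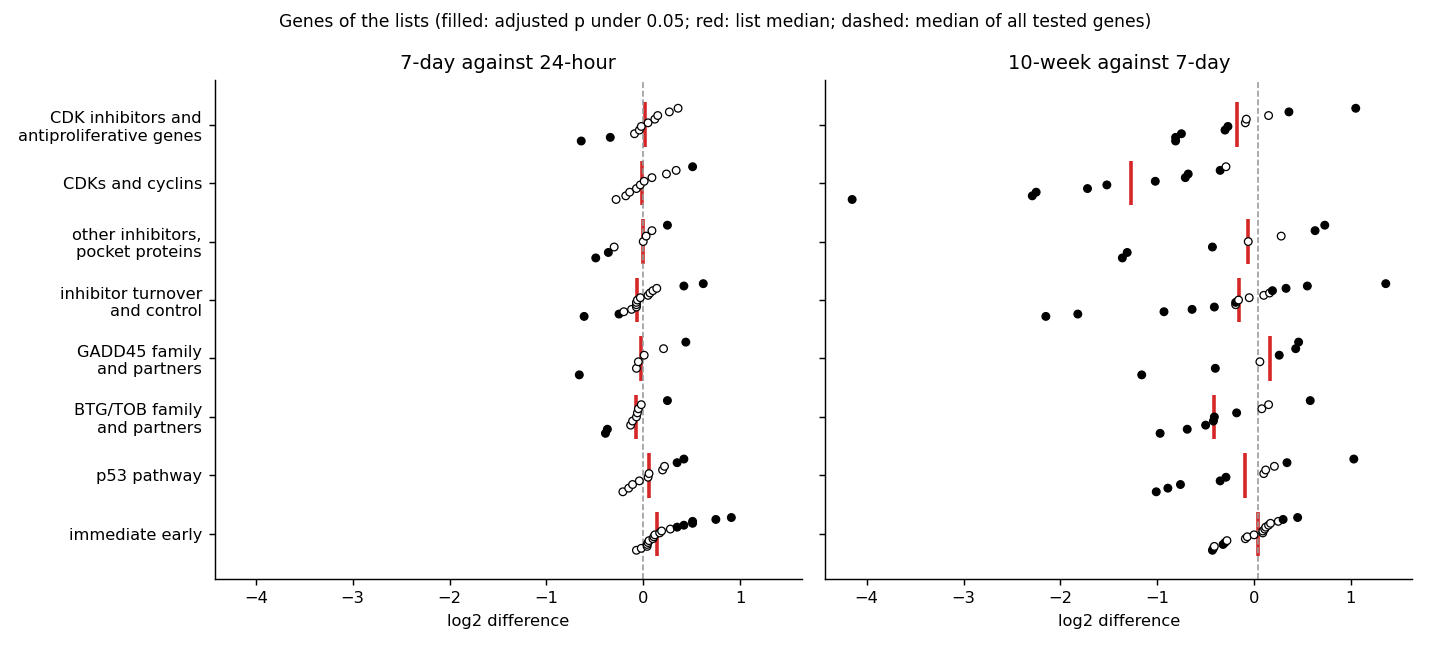
Log2 differences of single genes in the first week (left) and between 7 days and 10 weeks (right) for the 10 genes and for the lists of related genes. Filled points have an adjusted p under 0.05, red bars are list medians and the dashed line is the median of all tested genes; on the right the CDKs and cyclins centre on -1.27 and the 10 genes on -0.18.

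Of 10 genes that respond to glucocorticoids, 0 rose and 4 fell in the first week (median -0.15), against 5.27% and 4.81% of all genes. Zbtb16 fell by 0.99, the lipocalin gene Lcn2 by 0.97 and the clock gene Per1 by 0.93. Afterwards 5 of the 10 rose and 1 fell (median 0.37), against 17.0% and 18.9% of all genes. Lcn2 rose by 1.89, Zbtb16 by 1.80 and Klf9 by 1.18. Leaving out 7-day replicates 2 and 3, 1 of the 10 fell in the first week (median -0.22), and 4 rose and 1 fell after it (median 0.30). Lcn2 and Zbtb16 then differed by -1.05 and -0.86 in the first week (adjusted p = 0.0583 and 0.45).

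The intervals compared differ greatly in length, and whether a gene moved differently in them was tested by the difference between the steps, a contrast added after the values were seen and passed by 18.9% of all genes. Among the 10 genes it was passed by Cdkn2c, whose second step lay 1.08 below its first (adjusted p = 0.00153), by Gadd45a, 0.93 above (adjusted p = 7.15e-04), and by Btg1, 0.78 below (adjusted p = 0.0363). The differences without 7-day replicates 2 and 3 were -1.03, 0.76 and -0.98, and none passed with the 1 array left at 7 days (adjusted p = 0.0922, 0.0832 and 0.23). The Btg1 value also missed the threshold when any 1 of the 24-hour arrays (adjusted p = 0.0749, 0.0544 and 0.078 for replicates 1, 2 and 3) or of the 7-day arrays (0.135, 0.0816 and 0.0902) was left out, and with arrays centred on their median (0.0512). For Cdkn1b the steps differed by 0.07 (95% interval -0.16 to 0.30, adjusted p = 0.72) and for Cdkn1c by 0.34 (0.06 to 0.61, adjusted p = 0.0889). Cdkn2d (-0.73, adjusted p = 0.0735) and Cdkn2b (0.45, adjusted p = 0.0946) did not pass either. The contrast did pass in 3 of 17 alternatives for Cdkn1c, 3 of 17 for Cdkn2d and 2 of 16 for Cdkn2b.

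For each gene called in any comparison, the genes with the most similar course over the 9 arrays were sought by Pearson's r, which describes likeness across 3 ages and is not a test. Cdkn1b ran closest to the ubiquitin ligase gene Nedd4l and to Igf2bp3, which encodes a fetal RNA-binding protein (0.987 each). Cdkn1c ran closest to Bex4 (0.990) and Pck2 (0.986). Gadd45a was nearest to the sarcomere gene Myot (0.995), and to Extl1 (0.994). For Cdkn2c these were the chromatin gene Dek (0.977) and Prrc2a (0.975), for Cdkn2d Rbm8a (0.988) and Fkbp8 (0.981), and for Btg1 Prpf3 and Cabcoco1 (0.986 each). The nearest were Stx17 (0.979) and 8030451A03Rik (0.969) for Cdkn2b and Asap3 (0.966) and Gm14207 (0.964) for Cdkn2a. As the arrays fall into 3 ages, such values are common: 1428 genes had an r over 0.9 with Gadd45a and 35 with Cdkn2a.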

How the data were processed

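The deposited table holds 1 log2 signal per probe set and array, as the authors processed it. MAS5 5.0 is named in the submitters' processing notes. Not given in the sources used here are the probe summary, the normalization between arrays and the genome build. Array medians over the 35556 features lay between 4.876 and 4.924, and the values were used as deposited. Probe sets were named from the platform table, symbols were updated by Entrez id, and of several probe sets with the same single symbol the one with the highest mean was kept, which left 19938 genes. Cdkn1a shares its probe set with another symbol and was not tested. Using limma 3.58.1 (R 4.3.3), 1 mean for each age was estimated from the 9 arrays together (eBayes with an intensity trend, 6 residual degrees of freedom), with Benjamini-Hochberg adjustment over all genes of a comparison, and was tested on simulated data. Intervals are 95%. Arrays have no read depth, and 3 per age limit the precision. Tables were made with Python 3.11.15 and pandas 2.3.3.

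Text names all 10 genes, up to 3 genes per list and comparison with the largest difference among those that passed, and the 2 genes nearest in course. Alb, Scgb1a1, the T cell genes, Ccng1, Gadd45g, Phlda2, Cnot7, Cnot8, Ccnd1, Ccnd2, Cdk4, Cdk6, Rb1, Skp2, Bmi1, Meis1 and the FOXO genes were named after their values were seen, as were repeats of a gene in another comparison. The 10 genes and the lists were chosen with earlier results of these data known. List genes without a probe set of a single symbol were not tested. Alternatives covered scaling, variance prior, arrays in the fit, dim genes, probe sets, the replicate number and arrays left out.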

Additional observations from a re-analysis of the deposited data

How the results depend on the processing

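Of the 10 genes 2, 7 and 8 passed in the first week, between 7 days and 10 weeks, and over the whole span. These counts and their genes were the same with arrays centred on their median, without an intensity trend and with a robust variance prior. No call of a fall was lost over the whole span under any alternative that was run. Without the fat-bearing 7-day replicates 2 and 3 (1 array left at that age) 1 gene passed in the first week, 1 lower; between 7 days and 10 weeks 4 passed, 1 higher and 3 lower; and over the whole span 1 was higher. Fewer of all genes passed in that fit too, in each comparison, so its lower counts cannot be read as particular to the 10 genes. With only the arrays of the 2 ages compared 1 gene was higher in the first week, and 1 in place of 3 over the whole span. Of all 19938 genes, 1112 and 3445 were higher in these comparisons. The filter on dim genes, which removes Cdkn2a and Cdkn2b from the test, left 1 higher in each comparison with 10 weeks. Of the 10496 genes kept, 2620 were higher at 10 weeks than at 7 days and 2862 than at 24 hours. The second probe set of Cdkn1b left 1 gene called in the first week, 1 lower, beside 1072 of 21789 probe sets lower. This alternative was chosen after seeing the data. With 1 array left out at a time, 0 to 1 genes were higher in the first week and 1 to 3 over the whole span. Of all genes, 5.27% and 19.5% were higher in these comparisons with all arrays.

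The sign of differences that had not passed turned in some settings: Btg1 in the first week was 0.06 without 7-day replicates 2 and 3, and the step difference of Cdkn1b was -0.05 without the same arrays. With single arrays left out, the first-week difference of Btg1 ranged from -0.08 to 0.01 and that of Cdkn2d from -0.10 to 0.12, the difference after day 7 ranged from -0.21 to 0.06 for Btg2 and from -0.15 to 0.03 for Tob1, that of Tob1 over the whole span from -0.10 to 0.08, and the step difference from -0.05 to 0.13 for Cdkn1b and from -0.11 to 0.07 for Cdkn2a. The cause was not tested.

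With the replicate number as a replicate block, 1734, 6916 and 7724 of all genes passed in the 3 comparisons, in place of 2009, 7165 and 7989, and the same 2, 7 and 8 of the 10 genes did. Deviations of same-numbered arrays from their age means correlated at -0.174 to 0.133 over genes, against -0.216 to 0.25 for arrays of different numbers. Of 9 arrays, 1 correlated best with its own number at both other ages. No pairing by number was seen, though deviations from means of 3 arrays cannot exclude one. Over all genes, centring gave 5247 in place of 3388 rises after day 7. Leaving out 24-hour replicate 1, 24-hour replicate 2 or 7-day replicate 3 gave 1283, 1158 and 1149 calls in the first week. With all arrays, 25 of the 92 related list genes passed in the first week, and 2009 of all 19938 genes. Without 7-day replicates 2 and 3, fewer of both passed, so that loss cannot be read as particular to the lists.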
